A study of Mus musculus with 34 samples.

Results

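The 9 genes examined encode liver hormones and the insulin, growth hormone and IGF signalling proteins that act on or in the hepatocyte: *Igf1*, *Igfbp1*, *Igfbp2*, *Ghr*, *Insr*, *Irs1*, *Irs2*, *Fgf21* and *Angptl4*. They were chosen by name, with earlier results of these data known, out of 22367 protein-coding genes. Their contrasts with all genes below therefore describe a set that was not chosen blind to the data. The peaks of each gene were those centred from 50 kb before the transcription start site (TSS) to 2 kb beyond the gene end. In these windows, 1063 kb in all, lay 87 of the 28631 peaks of HDAC3 or PROX1 and 72 of the 24253 peaks of HNF4α. HDAC3 is a histone deacetylase that works in corepressor complexes, PROX1 is a homeodomain transcriptional regulator, and HNF4α is a nuclear receptor that maintains hepatocyte gene expression.

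The ChIP-seq was done on livers of male C57B/6 mice, 10 weeks old, taken at zeitgeber time (ZT) 10, which is late in the light phase. By the labels, control livers, whose genotype is not given further, gave 3 libraries for HDAC3 and 3 for PROX1, and *Hnf4α* floxed livers gave 2 for HNF4α. According to the methods, the floxed controls received an AAV8 vector with a hepatocyte promoter (TBG) driving a fluorescent protein, so the HNF4α list comes from different animals than the other lists. Replicates were pooled by the authors into 1 peak list per factor, so no spread between livers can be given and every comparison below is a description without a test.

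IGF1 is made mainly by the liver when growth hormone binds its receptor and activates STAT5, and it travels in plasma on IGF-binding proteins. Insulin acts through its receptor and the adaptors IRS1 and IRS2 on AKT, which keeps FOXO factors out of the nucleus. FGF21 and ANGPTL4 are secreted factors whose genes are induced in fasting, through PPARα among others.

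A peak is called co-bound where the same 200 bp interval stands in both the HDAC3 and the PROX1 list, and triply bound where a single HNF4α peak also covers at least 50% of it. The paper called HDAC3 and PROX1 peaks at unequal read limits. It counted peaks as shared at 50% overlap, with a lower read limit for the other factor. Whether the identical intervals follow that rule is not stated. If they do, a co-bound peak need not have passed both calling limits. A co-bound peak was present in the windows of 8 of the 9 genes, against 38.4% of all protein-coding genes, and a triply bound peak in the same 8, against 31.1%. *Fgf21* was the exception, with no peak of the 3 lists, which was the case for 44.7% of all genes. The 87 peaks comprised 69 co-bound (79.3%), 15 PROX1-only (17.2%) and 3 HDAC3-only peaks (3.45%), against 70%, 25.8% and 4.22% of all 28631 peaks. PROX1-only peaks stood in the windows of 7 of the 9 genes, against 25.2% of all genes, and HDAC3-only peaks in those of 2, *Igf1* and *Angptl4*, against 7.40%. The bars of peaks per gene show co-bound peaks as the main class at each of the 8 genes, as in the series as a whole.

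**Figure D1:**
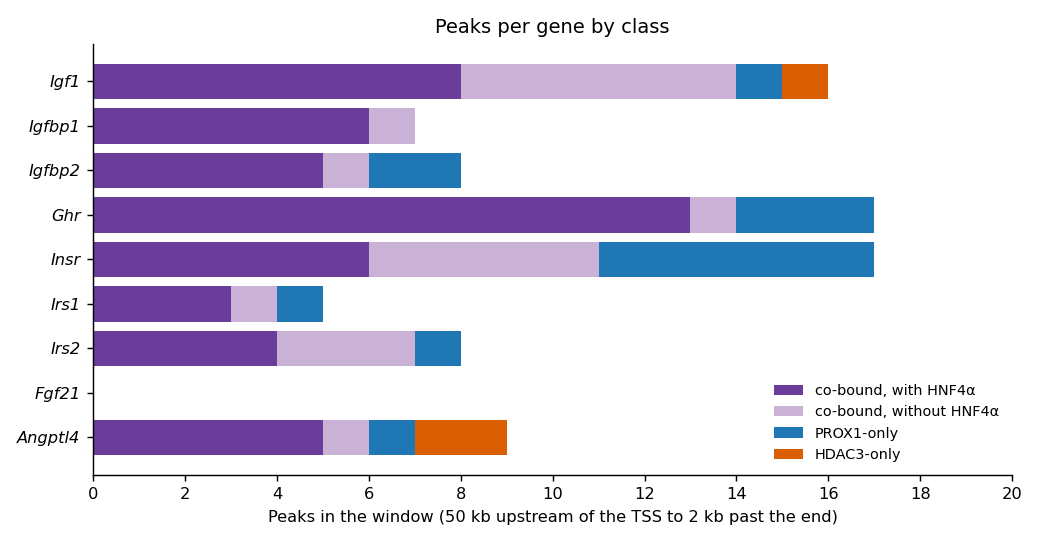
Number of peaks in the window of each gene (x axis), stacked by class: co-bound with HNF4α, co-bound without HNF4α, PROX1-only and HDAC3-only. *Ghr* and *Insr* each had 17 peaks, *Igf1* had 16, and *Fgf21* had 0.

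The sequences of the peaks nearest to a TSS show what lies at some promoters of these genes. They are co-bound peaks centred within 1 kb of a TSS, which 3 of the 9 genes had (6.25% of all genes), plus the HDAC3-only peak at the *Angptl4* start. All are on the plus strand of mm9, in lower case, without the bases that belong to UTR exons, and capitals mark a match to any of 8 motifs that are spelled out further on.
Igf1 promoter, chr10:87320395-87320594: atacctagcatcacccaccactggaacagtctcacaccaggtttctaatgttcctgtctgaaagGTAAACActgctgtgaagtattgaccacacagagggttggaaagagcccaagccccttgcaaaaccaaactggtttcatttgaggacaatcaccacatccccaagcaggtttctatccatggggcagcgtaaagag
Igfbp1 promoter, chr11:7097513-7097712: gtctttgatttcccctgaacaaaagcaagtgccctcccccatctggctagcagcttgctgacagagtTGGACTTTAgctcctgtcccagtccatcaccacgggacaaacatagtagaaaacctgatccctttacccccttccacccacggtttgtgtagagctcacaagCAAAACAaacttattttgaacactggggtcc
Ghr internal promoter, chr15:3532070-3532257: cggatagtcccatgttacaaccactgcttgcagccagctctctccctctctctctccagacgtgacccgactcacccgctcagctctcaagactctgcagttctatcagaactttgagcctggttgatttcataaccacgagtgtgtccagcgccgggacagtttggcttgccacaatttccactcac
Angptl4 promoter, HDAC3-only, chr17:33918521-33918597: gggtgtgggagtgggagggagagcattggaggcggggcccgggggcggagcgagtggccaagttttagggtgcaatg

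The *Igfbp1* promoter peak held an HNF4 match on the minus strand, TAAAGTCCA, 201 bp upstream of the TSS and inside the HNF4α peak, and the letters CAAAACA 100 bp upstream of the TSS. CAAAACA is the core of the insulin response element through which FOXO factors act on this promoter. The *Igf1* promoter peak held GTAAACA, the forkhead motif, 548 bp upstream of the TSS, and no HNF4 match. Neither the *Ghr* peak nor the *Angptl4* peak held a match to the 8 motifs in the bases shown. A PROX1-only peak at another internal *Ghr* start, described below, is not shown.

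The peaks with the highest HNF4α score at each gene were mostly far from the TSS. They are shown because they carry the strongest HNF4α signal of each window. The top peak of *Angptl4* lies in its 3′ UTR and is replaced by the next in score, and that of *Igf1* is printed without 16 bases that overlap a transcript's end.
Igf1, 57.7 kb downstream of the TSS, chr10:87378640-87378823: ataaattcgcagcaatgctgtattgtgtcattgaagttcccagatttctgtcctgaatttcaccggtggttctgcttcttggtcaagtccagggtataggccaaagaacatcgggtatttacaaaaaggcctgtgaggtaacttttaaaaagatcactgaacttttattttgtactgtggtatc
Igfbp1, 4.89 kb upstream, chr11:7092796-7092995: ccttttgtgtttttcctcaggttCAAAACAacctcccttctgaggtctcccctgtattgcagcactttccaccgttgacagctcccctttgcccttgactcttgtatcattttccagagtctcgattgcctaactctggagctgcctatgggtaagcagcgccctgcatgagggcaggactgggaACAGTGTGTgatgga
Igfbp2, 32.1 kb upstream, chr1:72838892-72839091: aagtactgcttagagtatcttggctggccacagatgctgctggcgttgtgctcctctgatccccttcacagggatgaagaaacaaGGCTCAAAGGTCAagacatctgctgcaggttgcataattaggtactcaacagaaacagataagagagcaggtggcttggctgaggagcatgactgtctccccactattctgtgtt
Ghr, 24.7 kb upstream, chr15:3558120-3558319: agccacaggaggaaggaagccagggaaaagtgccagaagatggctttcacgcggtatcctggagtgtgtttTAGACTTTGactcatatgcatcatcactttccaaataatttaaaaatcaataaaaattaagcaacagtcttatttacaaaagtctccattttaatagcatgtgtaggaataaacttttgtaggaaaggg
Insr, 22.9 kb downstream, chr8:3256644-3256843: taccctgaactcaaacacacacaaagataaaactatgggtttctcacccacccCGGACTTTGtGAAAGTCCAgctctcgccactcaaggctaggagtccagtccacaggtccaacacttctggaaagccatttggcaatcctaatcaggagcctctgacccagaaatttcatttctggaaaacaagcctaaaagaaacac
Irs1, 51.8 kb downstream, chr1:82236093-82236292: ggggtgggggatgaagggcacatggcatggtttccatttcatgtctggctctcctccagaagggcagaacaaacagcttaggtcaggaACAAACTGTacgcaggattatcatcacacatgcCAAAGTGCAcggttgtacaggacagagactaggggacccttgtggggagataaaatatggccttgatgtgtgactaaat
Irs2, 12.9 kb upstream, chr8:11021277-11021476: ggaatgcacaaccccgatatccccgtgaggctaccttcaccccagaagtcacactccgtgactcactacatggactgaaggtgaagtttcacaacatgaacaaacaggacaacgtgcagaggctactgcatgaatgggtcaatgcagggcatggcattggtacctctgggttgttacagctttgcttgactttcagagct
Angptl4, 7.96 kb downstream, chr17:33910460-33910659: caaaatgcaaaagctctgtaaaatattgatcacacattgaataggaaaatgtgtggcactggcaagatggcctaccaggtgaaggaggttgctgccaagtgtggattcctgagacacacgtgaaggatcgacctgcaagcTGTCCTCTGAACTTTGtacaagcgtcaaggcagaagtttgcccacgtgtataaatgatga

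Of these 8 top scoring peaks, counting the unprinted one of *Angptl4*, 4 held an HNF4 match, at *Ghr*, *Insr*, *Irs1* and *Angptl4*. Over all triply bound peaks, whatever their score, the share with an HNF4 match was 28.4%. The 8 were picked for their scores, and no share for other peaks of such scores is given. The *Insr* peak held 2 such matches 1 base apart, CAAAGTCCG on the minus strand followed by GAAAGTCCA on the plus strand. At *Igfbp2* the marked letters are a direct repeat spaced by 1 base (DR1), GGCTCAAAGGTCA, which is not a match to the HNF4 letters searched here. The paper labels the HNF4α site that it mutated at *G0s2* a DR1, so this peak may still hold an HNF4α site. Counting either motif, 5 of the 8 peaks held a match. The printed *Angptl4* peak held CAAAGTTCA overlapping a direct repeat, both on the minus strand. The top peaks of *Igf1* and *Irs2* held none of the 8 motifs.

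The windows of the 9 genes held a median of 7 co-bound peaks (range 0 to 14), against a median of 0 (range 0 to 102) over all protein-coding genes. Window length did not differ as much, with a median of 80.0 kb for the 9 genes and 67.4 kb for all. Per 100 kb of window, the 9 genes had a median of 7.50 co-bound peaks, against 0 for all genes. The plot of ranks shows each gene on the distribution over all genes.

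**Figure D2:**
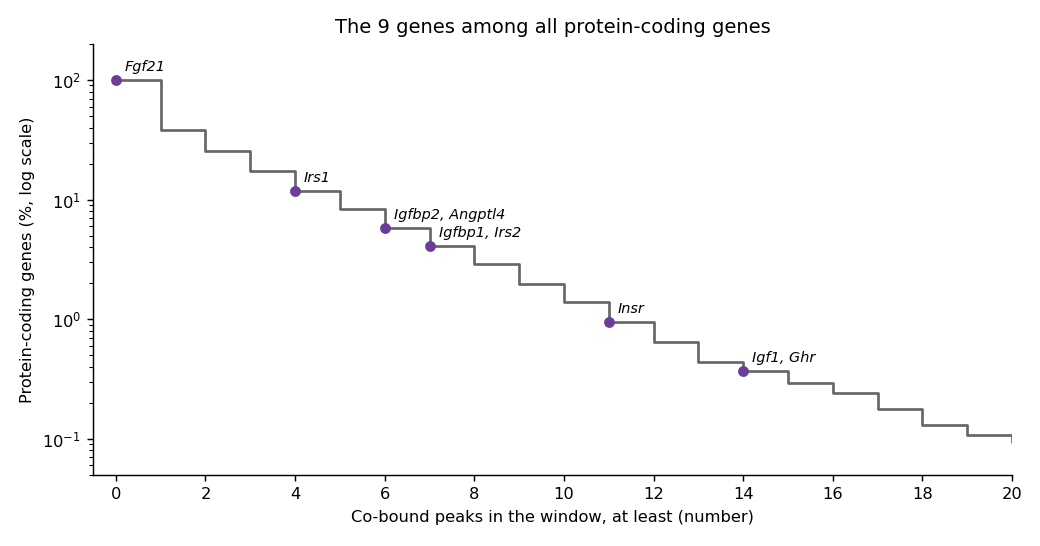
Percentage of all 22367 protein-coding genes (y axis, log scale) with at least the number of co-bound peaks on the x axis, with the 9 genes as points. *Igf1* and *Ghr*, with 14 co-bound peaks each, sit at 0.371%, *Insr* at 0.948%, and *Irs1* at 11.9%.

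HNF4α covered 50 of the 69 co-bound peaks, which is 72.5% (95% Wilson interval 61.0 to 81.6%), against 61.3% of all 20039 co-bound peaks. It covered 8 of the 15 PROX1-only peaks, 53.3% (30.1 to 75.2%), against 36.7% of all PROX1-only peaks. It covered 1 of the 3 HDAC3-only peaks, against 14.0% of all HDAC3-only peaks. The series-wide share lay inside the interval of the 9 genes for the PROX1-only peaks and, just above its lower bound, for the co-bound peaks. These intervals treat each peak as independent, although 13 of the 50 triply bound peaks were at *Ghr*. The deposited lists hold the co-bound peaks in 3 blocks split by empty lines, whose meaning is not stated, and the share with HNF4α was not uniform over them. In the first block HNF4α covered 45 of 59 peaks of the 9 genes (76.3%, against 66.4% of all), in the second 5 of 9 (55.6%, against 51.1%) and in the third 0 of 1 (against 32.6%). The covering HNF4α peaks had a median score of 54.9 (range 20.3 to 120.2) at the 50 triply bound peaks, against a median of 52.3 over all 12284 triply bound peaks. The score is the authors' HOMER peak score and ran from 20.3 to 160.2 over the whole HNF4α list, with a median of 41.9.

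**Figure D3:**
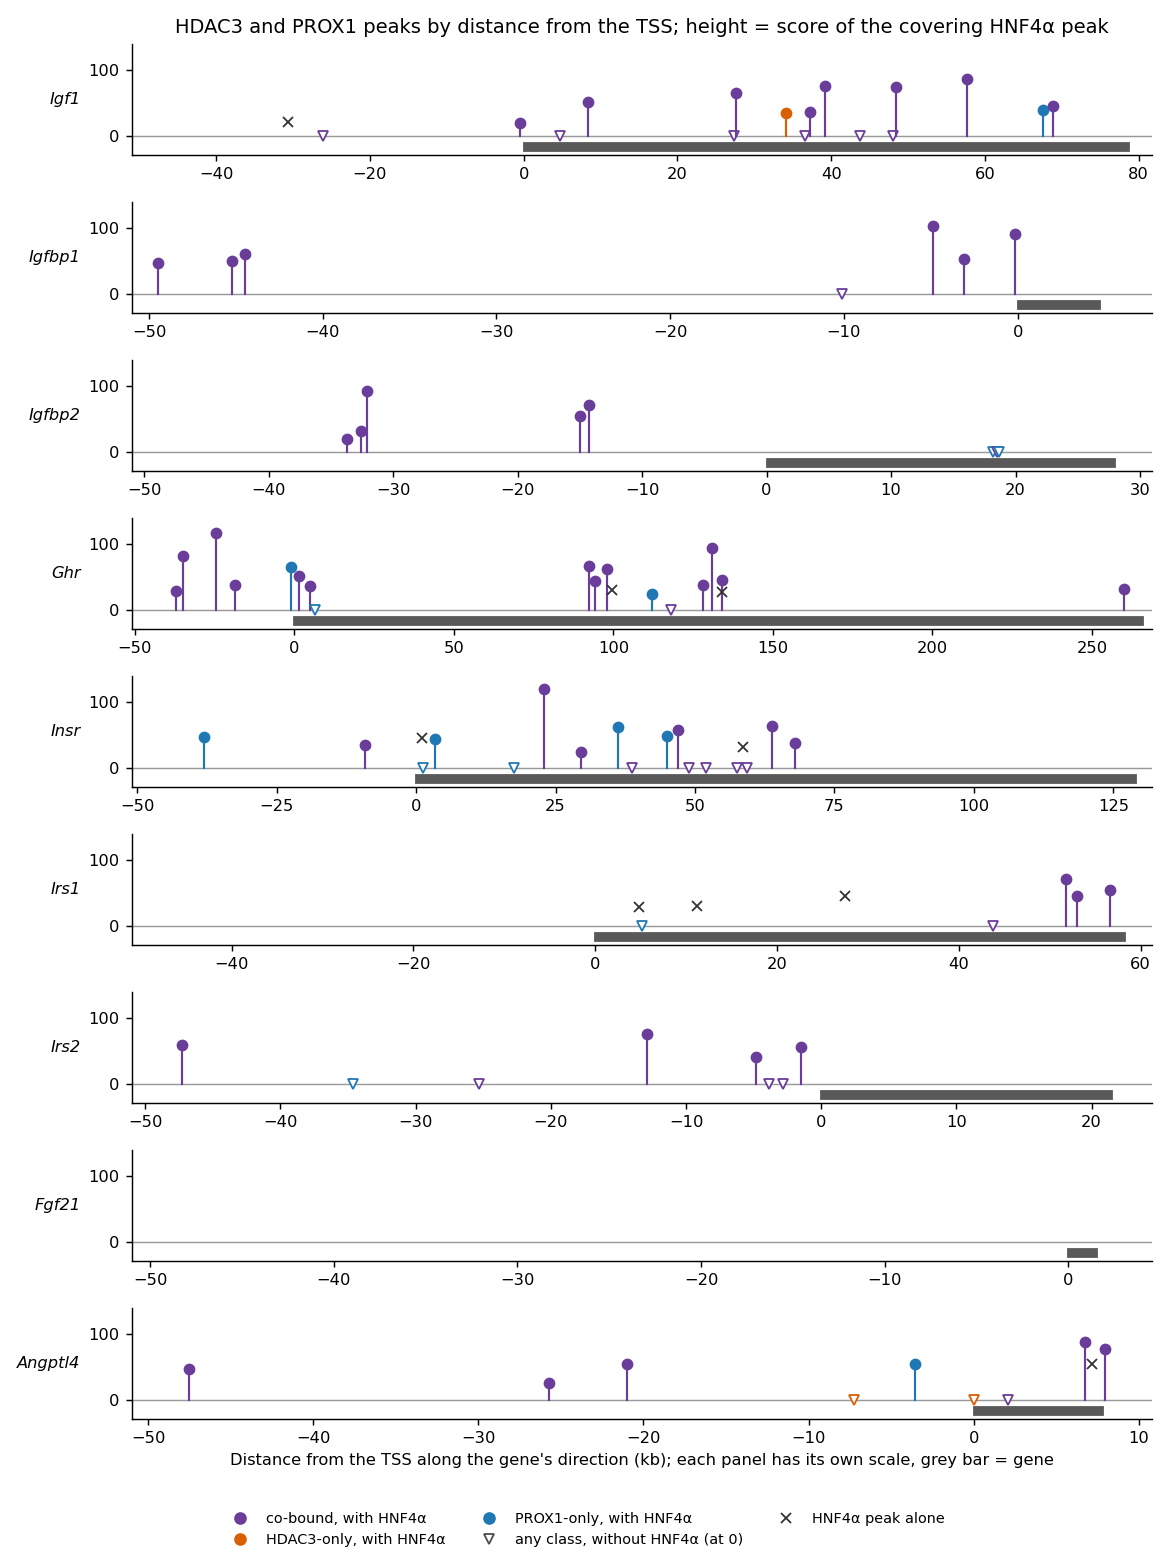
HDAC3 and PROX1 peaks in the window of each gene by distance from the TSS (x axis, kb, negative is upstream, own scale per panel), with the score of the covering HNF4α peak as height (y axis). Filled circles are peaks with HNF4α, open triangles at 0 are peaks without it, crosses are HNF4α peaks that share no base with an HDAC3 or PROX1 peak, and grey bars are the genes. All co-bound peaks of *Igfbp1* and *Irs2* lie upstream, and all 4 of *Irs1* lie in the last part of the gene.

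*Igf1*, the circulating growth factor of the axis, lies at chr10:87321010-87399792 on the plus strand and had 14 co-bound peaks, 8 of them triply bound. Only 0.371% of protein-coding genes had as many co-bound peaks, and 1.35% had as high a number per 100 kb, which was 10.7 at *Igf1*. Apart from the promoter peak and 1 peak 26.1 kb upstream, the co-bound peaks were in introns, between 4.78 and 68.9 kb downstream of the TSS. The HNF4α scores differed along the gene. The promoter peak, 516 bp upstream of the TSS, had an HNF4α score of 20.3, the lowest of all 50 triply bound peaks and at the floor of the HNF4α list. Farther downstream the scores reached 76.8 at 39.2 kb, 74.9 at 48.5 kb and 87.6 at 57.7 kb, and 7.78% of all HNF4α peaks scored at least as high as the last. Co-bound peaks also came as neighbours here, with the smallest gap of the 9 genes, 369 bp, between a peak without HNF4α and a triply bound one with a score of 65.5.

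*Igf1* also had 1 of the 3 HDAC3-only peaks, in an intron 34.1 kb downstream of the TSS, and it was the one that HNF4α covered. The cover was 50.5%, just inside the limit of 50%, with a score of 34.9. Its sequence is shown as the only HDAC3-only peak of the 9 genes with HNF4α, with GTAAACA and the C/EBP match TTGCACAA in capitals.
Igf1 intron, HDAC3-only, chr10:87355031-87355230: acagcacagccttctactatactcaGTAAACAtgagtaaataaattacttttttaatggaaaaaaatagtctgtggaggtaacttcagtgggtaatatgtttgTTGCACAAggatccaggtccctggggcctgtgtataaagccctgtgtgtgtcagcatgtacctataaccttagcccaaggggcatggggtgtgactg
The single PROX1-only peak of *Igf1*, 67.6 kb downstream, had HNF4α at a score of 40.1 and lay next to the last triply bound peak, at 68.9 kb, with a score of 46.6.

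*Igfbp1* encodes an IGF-binding protein that insulin lowers and fasting raises. It lies at chr11:7097785-7102549 on the plus strand and had 7 co-bound peaks, 6 of them triply bound, with no PROX1-only or HDAC3-only peak. At 12.3 per 100 kb it was the densest of the 9 windows, and 0.773% of all genes had as high a density. The peaks formed a promoter-proximal and a far upstream group. The promoter peak, 173 bp upstream of the TSS, had an HNF4α score of 91.9. The peaks 3.09 kb and 4.89 kb upstream had scores of 54.2 and 103.7, and the one 10.1 kb upstream had no HNF4α. The far group, 44.5 to 49.5 kb upstream, lay in introns of *Adcy1*, which encodes an adenylyl cyclase, with scores from 47.6 to 61.7. In each of these 7 cases the nearest annotated protein-coding TSS was still that of *Igfbp1*.

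*Igfbp2* encodes another IGF-binding protein of plasma and lies at chr1:72871077-72899048 on the plus strand. Its 6 co-bound peaks comprised 5 upstream and 1 in an intron, and HNF4α covered all 5 upstream peaks and not the intronic one. The upstream peaks formed 2 groups. The far group, at 33.7, 32.6 and 32.1 kb, had HNF4α scores of 20.7, 33.0 and 92.8, and the nearer group, at 15.0 and 14.3 kb, had scores of 55.1 and 71.1. The intronic peak, 18.5 kb downstream of the TSS, stood between 2 PROX1-only peaks at 18.2 and 18.7 kb. A single HNF4α peak with a score of 44.3 lay across the gap and covered 18.0% of the co-bound peak and 24.5% of a PROX1-only one, so both fell outside the 50% limit. No peak lay within 1 kb of an *Igfbp2* TSS.

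*Ghr* encodes the growth hormone receptor and is the longest of the 9 genes, at chr15:3267760-3533492 on the minus strand. Of its 14 co-bound peaks 13 were triply bound, a number that 0.0849% of all genes reached. The density was 4.41 co-bound peaks per 100 kb, which 10.9% of all genes reached, so the rank by density was lower than the rank by number. Of the triply bound peaks 4 were upstream of the TSS, at 37.0, 35.0, 24.7 and 18.5 kb, with scores of 28.7, 82.9, 116.4 and 38.2. The score of 116.4 was among the top 1.12% of the HNF4α list. A second cluster between 92.4 and 134 kb downstream held 6 triply bound peaks, with scores from 38.6 to 94.7. The co-bound peak without HNF4α, at 118 kb, was touched by an HNF4α peak that scored 68.8 and covered 25.5% of it.

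The starts of *Ghr* carried peaks of different classes, with the outermost start that of a transcript not annotated as protein-coding. The co-bound promoter peak lay 327 bp from an internal TSS and 1.32 kb downstream of the outermost one, with a score of 51.4. A PROX1-only peak with an HNF4α score of 65.5 lay 1.06 kb upstream of the outermost TSS. Another PROX1-only peak, with a score of 25, lay 28 bp from an internal TSS of the gene 112 kb downstream. The triply bound peak farthest from the TSS, at 260 kb, had a score of 32.5, and its nearest TSS was that of *Ccdc152*, 19.7 kb away.

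*Insr* encodes the insulin receptor and lies at chr8:3150922-3279617 on the minus strand. It had 11 co-bound peaks, 6 of them triply bound, and 6 PROX1-only peaks, the most of the 9 genes, 4 of which had HNF4α. As many co-bound peaks were reached by 0.948% of all genes. As high a density, 6.09 per 100 kb, was reached by 6.4%, so the rank by density was lower here too. The highest HNF4α score of the 9 genes, 120.2, was at the intronic peak 22.9 kb downstream of the TSS printed above, and 0.767% of the HNF4α list scored as high. The other triply bound peaks scored from 24.0 to 63.6, so this peak stood apart within its gene. Of the 5 co-bound peaks without HNF4α, 1 was at 38.7 kb and a run of 4 lay between 48.9 and 59.4 kb. Within this run, at 58.6 kb, was an HNF4α peak with a score of 31.6 that shared no base with an HDAC3 or PROX1 peak. One triply bound peak, 68.0 kb downstream, was centred in a coding exon, the only one of the 69 co-bound peaks in such a place. Close to the TSS a PROX1-only peak and an HNF4α peak were side by side. The PROX1-only peak was centred 1.24 kb downstream of the TSS, and the HNF4α peak, with a score of 45.2, at 1.03 kb, 215 bp from it, without a shared base. The next PROX1-only peak, 3.41 kb downstream, was covered to 78.5% by an HNF4α peak with a score of 44.3.

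*Irs1* and *Irs2* encode the adaptors that pass the signal of the insulin and IGF1 receptors to PI3-kinase. *Irs1*, at chr1:82229676-82287991 on the minus strand, had 4 co-bound peaks, the fewest of the 8 genes with any, and 3 were triply bound, with scores of 71.1, 45.2 and 55.6. All 4 lay between 43.8 and 56.6 kb downstream of the TSS, the last of them in a UTR exon, and their nearest TSS was that of *Gm9747*, a predicted gene. The co-bound peak without HNF4α, at 43.8 kb, was covered to 30% by an HNF4α peak that scored 79.2, the highest cover below the 50% limit in the 9 windows. Nearer to the *Irs1* TSS were 1 PROX1-only peak, at 5.12 kb, and 3 HNF4α peaks that shared no base with an HDAC3 or PROX1 peak, at 4.77, 11.2 and 27.5 kb, with scores of 29.2, 30.6 and 45.2.

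*Irs2*, at chr8:10986980-11008458 on the minus strand, had the opposite arrangement, with all 7 co-bound peaks upstream of its TSS. HNF4α covered 4 of them, at 1.52, 4.84, 12.9 and 47.3 kb, with scores of 56.1, 41.0, 76.3 and 58.9. The 3 peaks without HNF4α, at 2.86, 3.83 and 25.3 kb, were not touched by an HNF4α peak. The peak nearest to the TSS is shown, chosen after its values were seen, because it holds 2 HNF4 matches, CAAAGGCCA on the minus strand and CAAAGTCGA on the plus strand, and the forkhead and insulin response letters as one run, GTAAACAAAACA, 1.60 kb upstream of the TSS.
Irs2, 1.52 kb upstream, chr8:11009879-11010078: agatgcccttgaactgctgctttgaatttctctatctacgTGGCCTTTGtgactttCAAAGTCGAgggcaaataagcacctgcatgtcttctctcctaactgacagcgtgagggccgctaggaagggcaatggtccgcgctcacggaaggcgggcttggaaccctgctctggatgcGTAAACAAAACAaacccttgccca

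*Angptl4* encodes an inhibitor of lipoprotein lipase and lies at chr17:33910695-33918520 on the minus strand. It had 6 co-bound peaks, 5 of them triply bound, 2 HDAC3-only peaks and 1 PROX1-only peak, the one window with all 3 classes beside that of *Igf1*. An HDAC3-only peak was centred 23 bp from the TSS and another 7.27 kb upstream, and no HNF4α peak touched either. The triply bound peaks with the highest scores, 88.1 and 77.3, lay at the end of the gene, 6.72 kb downstream of the TSS in the 3′ UTR and 7.96 kb downstream just past the gene. Between them lay an HNF4α peak that scored 55.1 and shared no base with an HDAC3 or PROX1 peak. The upstream triply bound peaks, at 21, 25.7 and 47.5 kb, scored 54.7, 25.4 and 46.6, and their nearest TSS was that of *Kank3* for 2 peaks and of *Ndufa7* for 1. The PROX1-only peak, 3.56 kb upstream, had HNF4α at a score of 55.1.

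*Fgf21*, the hepatokine of fasting, lies at chr7:52869277-52870860 on the minus strand, in a window of 53.6 kb that holds 6 genes in all or in part (*Fgf21*, *Fut1*, *Izumo1*, *Rasip1*, *Mamstr* and *Fut2*). None of the 3 lists had a peak centred in it. The nearest co-bound peak lay 900 bp outside the window, 2.90 kb past the end of the gene and 4.48 kb from its TSS, and its nearest TSS was that of *Fgf21*. An HNF4α peak with a score of 45.7 lay wholly inside this co-bound peak. Being 95 bp wide, it could cover no more than 47.5% of the 200 bp, so its width alone kept it under the limit. A second co-bound peak 5.80 kb from the TSS was covered to 67.0% by an HNF4α peak with a score of 31.1, so a window drawn to 5 kb past the gene, chosen after the data were seen, would hold 2 co-bound peaks, 1 of them triply bound. The nearer peak is shown because it is the closest to *Fgf21*, with the HNF4 match CAATGTCCA in capitals.
Fgf21, 4.48 kb downstream, chr7:52866278-52866477: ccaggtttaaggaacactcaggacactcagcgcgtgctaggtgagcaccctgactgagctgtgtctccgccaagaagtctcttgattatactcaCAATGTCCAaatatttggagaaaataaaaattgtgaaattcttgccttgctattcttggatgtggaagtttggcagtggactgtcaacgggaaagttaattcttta

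The scores of the triply bound peaks overlapped between the genes. The median per gene ran from 46.6 at *Ghr* and 47.6 at *Insr* to 58.0 at *Igfbp1* and 58.5 at *Igf1*, a narrow span beside the ranges within *Ghr*, 28.7 to 116.4, and *Insr*, 24.0 to 120.2. *Ghr* and *Insr* thus had the highest single scores and the lowest medians, while *Igfbp1*, with the next highest single score, 103.7, had the second highest median. Of the 50 peaks 3 scored 100 or more, 1 each at *Igfbp1*, *Ghr* and *Insr*, and 5 scored under 30.

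**Figure D4:**
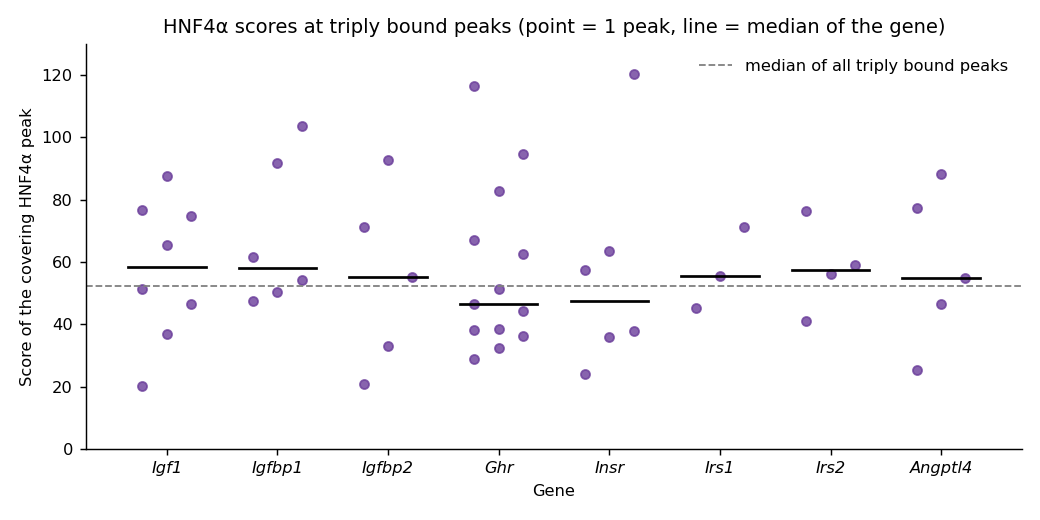
Score of the covering HNF4α peak (y axis) at each triply bound peak of the 8 genes that had one; each point is 1 peak, black lines are the medians per gene and the dashed line is the median of all triply bound peaks, 52.3. The points of every gene overlap those of the others, and the gene medians lie between 46.6 and 58.5.

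Of the 72 HNF4α peaks in the windows, 50 (69.4%) covered a co-bound peak, against 50.6% of the whole HNF4α list. A PROX1-only peak was covered by 8 (11.1%, against 11.2%) and an HDAC3-only peak by 1 (1.39%, against 0.697%), and 4 touched such a peak over less than 50% of its length (5.56%, against 6.12%). The remaining 9 shared no base with one, which is 12.5%, against 31.4% of the whole list. These 9 scored a median of 30.6, against 32.5 for that class in the whole list. At *Igfbp1*, *Igfbp2* and *Irs2* no HNF4α peak was of this class, and *Fgf21* had no HNF4α peak.

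By position, 39 of the 69 co-bound peaks (56.5%) were in introns, against 46.9% of all co-bound peaks, and 24 (34.8%) were intergenic, against 42.8%. A further 3 (4.35%) were within 1 kb of a TSS, against 7.91%. UTR exons held 2 (2.90%, against 1.45%) and coding exons 1 (1.45%, against 0.963%). The 9 windows each hold a whole gene, whereas the comparison takes all co-bound peaks wherever they lie. The window rule and the gene lengths thus bear on these shares and cannot be told apart from a trait of the genes. By side, 29 lay upstream and 40 downstream of the outermost TSS, at a median distance of 35.0 kb. *Igfbp1* and *Irs2* had co-bound peaks only upstream and *Irs1* only downstream. Among the 61 gaps between neighbouring co-bound peaks the median was 4.61 kb, and 7 gaps were under 1 kb, 3 of them at *Igf1*. For 78 of the 87 HDAC3 and PROX1 peaks the nearest protein-coding TSS was that of the gene itself. The 9 others were the 4 at *Irs1*, 3 at *Angptl4*, 1 at *Ghr* and 1 at *Insr*. No value over all gene windows stands beside the sides, the gaps and the nearest TSS. A window drawn around a gene favours that gene's own TSS as the nearest, so these counts only describe the 9 windows.

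The co-bound peaks were searched on both strands, in their 200 bp, for 8 motifs. These were the HNF4 motif CAAAGTCCA with up to 1 mismatch, the C/EBP motif TTGCGCAA with up to 1 mismatch, the forkhead motif GTAAACA of FOXO and FOXA factors, the STAT5 motif TTCNNNGAA, and the glucocorticoid receptor (GR) motif ACANNNTGT. The others were direct repeats of AGGTCA spaced by 1 base (DR1) or 2 bases (DR2), each with up to 2 mismatches, and the insulin response sequence (IRS) CAAAACA, which was chosen after the data were seen. The HNF4 motif and DR1 can overlap, and so can the forkhead and IRS letters.

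An HNF4 match stood in 16 of the 69 co-bound peaks, 23.2% (95% Wilson interval 14.8 to 34.4%), against 20.9% of all co-bound peaks. All 16 were triply bound, which is 32.0% of the 50 (20.8 to 45.8%), against 28.4% of all triply bound peaks. None of the 19 co-bound peaks without HNF4α had a match (upper bound of the interval 16.8%), against 9.05% of all such peaks, so the share over the series lay inside the interval. In each of the 16 peaks the best match lay inside the HNF4α peak, at a median of 20 bp from its centre, against 94.0% inside and 23 bp over all triply bound peaks with a match. The 16 peaks had a median HNF4α score of 67.3 (range 25.4 to 120.2), and the 34 triply bound peaks without a match a median of 46.6 (range 20.3 to 103.7), so the values overlapped over most of their range. *Igfbp1*, *Insr* and *Angptl4* had 3 such peaks each and *Igfbp2* had none.

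For each of the 8 motifs the share over all co-bound peaks lay inside the 95% interval of the 9 genes. STAT5 letters stood in 6 of the 69 peaks (8.70%, against 9.08%), 3 of them at *Igf1*, 2 at *Igfbp1* and 1 at *Ghr*. The forkhead motif stood in 9 (13.0%, against 8.18%), 3 of them at *Igf1*, and the insulin response letters in 7 (10.1%, against 8.09%), 3 of them at *Igfbp1*. GR letters stood in 8 (11.6%, against 9.70%) and DR2 in 4 (5.80%, against 6.73%). C/EBP stood in 4 (5.80%, interval 2.28 to 14.0%, against 12.4%) and DR1 in 5 (7.25%, interval 3.13 to 15.9%, against 13.0%). Of the 4 C/EBP matches 3 were at *Insr* and 1 at *Igf1*.

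**Figure D5:**
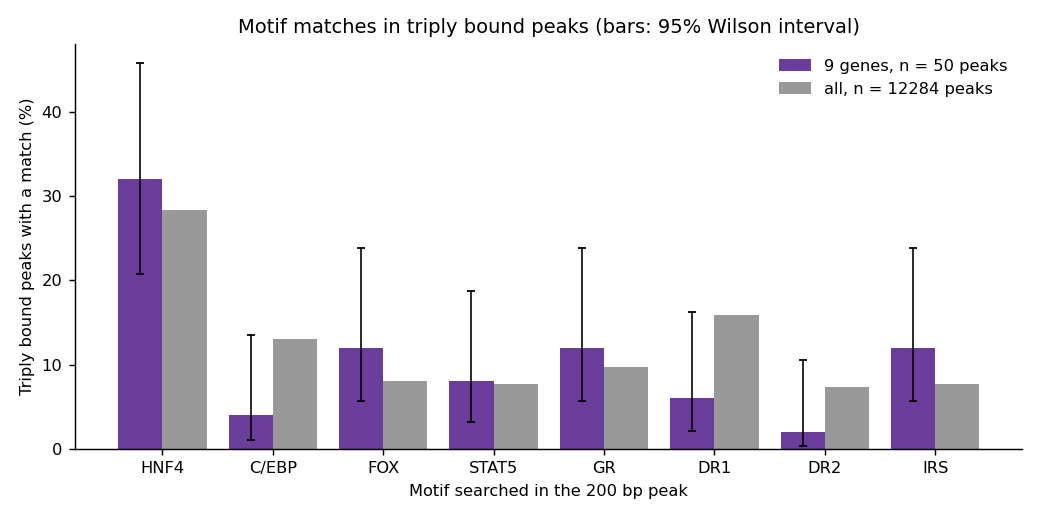
Percentage of triply bound peaks with a match to each of 8 motifs (y axis), for the 50 peaks of the 9 genes (purple, with 95% Wilson intervals) and all 12284 triply bound peaks (grey). HNF4 has the highest share in both, 32.0% and 28.4%.

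Other genes of the same pathways give the setting. Over all protein-coding genes, 38.4% had a co-bound peak and 31.1% a triply bound one. Of 39 further genes of the insulin and IGF axis, 32 had a co-bound peak and 28 a triply bound one, with a median of 3 co-bound peaks. Of their 130 distinct co-bound peaks 60% were triply bound, close to the 61.3% of all co-bound peaks. The highest numbers were at *Prlr*, the prolactin receptor, with 15, at *Stat5b*, the growth hormone effector, with 13, and at *Pik3r1*, a regulatory subunit of PI3-kinase, with 11. None was listed at *Igfbp3*, *Igfbp7*, *Irs4*, *Pdpk1*, *Akt1*, *Socs1* and *Jak2*. Of 21 further secreted liver factors and FGF receptors, 17 had a co-bound peak and 16 a triply bound one, with a median of 4, led by *Fgf1* with 12 and *Fetub* and *Tsku* with 11 each. None was listed at *Angptl6*, *Manf*, *Hgf* and *Fgfr4*. As a check of the tissue, 10 of 10 hepatocyte marker genes had a co-bound peak, with a median of 8 per gene, beside the median of 7 at the 9 genes. A co-bound peak was listed at 1 of 5 Kupffer cell, 0 of 5 stellate cell, 3 of 5 endothelial cell, 2 of 5 cholangiocyte, 2 of 5 skeletal muscle and 1 of 5 neuron markers, beside 38.4% of all genes. The median per gene was 3 for the endothelial markers, as for the insulin and IGF axis, and 0 for each of these other lists.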

How the data were processed

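HDAC3, PROX1 and HNF4α ChIP-seq peak lists of mouse liver were used. According to the methods and the submitters' notes, alignment by the authors was to mm9 with Bowtie 0.12.7, and they pooled replicates and called peaks with HOMER against IgG input, above limits of enrichment and of normalized reads. Of the deposited lists, those of HDAC3 and PROX1 hold intervals alone, and that of HNF4α adds a score per peak, whose scale is not stated. The methods name 3 mice per group and the labels list 2 HNF4α libraries. The depth of the libraries is unknown.

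Peaks were assigned by their centres to GENCODE vM1 protein-coding genes on NCBIM37 (mm9). A promoter was 1 kb around any protein-coding TSS. Sequences and motif matches were read from the same assembly. Intervals are Wilson 95% intervals, cover counting error only, and no test was run. All 9 genes are named. Of the pathway lists the 3 genes with most co-bound peaks and those without any are named, and neighbours where they are nearest to 2 or more peaks of a window; *Ccdc152*, *Ndufa7* and *Adcy1* were added after their values were seen. Sequences shown were the co-bound peak nearest to a TSS within 1 kb, the top scoring triply bound peak and HDAC3-only peaks with HNF4α, plus the 3 chosen after their values were seen, at *Angptl4*, *Irs2* and *Fgf21*. Genes and lists were chosen with earlier results of these data known.

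On simulated data the code classed 2000 of 2000 overlaps and found 700 of 700 planted motifs. The insulin response letters were not among the planted motifs. Software was matplotlib 3.10.9, pandas 2.3.3, scipy 1.17.1, numpy 2.4.6 and Python 3.11.15. Alternatives changed the HNF4α cover, the window, the TSS, the blocks of co-bound peaks that empty lines split in the lists, the motif and, after the data were seen, the window's downstream end. RNA-seq, H3K27Ac and knockout libraries were not analysed here. The paper compared HNF4α binding with peaks filtered on the *Hnf4α* knockout. Whether the HNF4α list used here carries that filter is not stated.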

Additional observations from a re-analysis of the deposited data

How the results depend on the processing

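The alternatives that moved a value were the rule on HNF4α cover and the motif. With HNF4α cover of at least 75%, 34.8% of the co-bound peaks of the 9 genes had HNF4α (32.5% of all co-bound peaks), and with HNF4α peaks above the median score alone 52.2% did (40% of all). The HNF4α peaks were 85 to 168 bp wide (median 156 bp) and the co-bound peaks 200 bp. The narrower HNF4α peaks thus could not reach 75% at any position, so this drop depends in part on peak width. With no mismatch allowed, 0 of the 69 co-bound peaks held the HNF4 motif (2.84% of all). Each of the other 35 recomputed values stayed within 1.5 times a count or within the interval of a share. The number of genes with a triply bound peak ran from 7 to 9: it was 7 when only peaks nearest to the gene's own TSS counted, which took out *Irs1*, and 9 with windows from 100 kb upstream or to 5 kb past the gene, which added *Fgf21*. The share of co-bound peaks with HNF4α otherwise ran from 68.5 to 78.3%. No paired analysis was possible because the lists are pooled over replicates, and for the same reason no replicate could be left out. The lists hold no reads, so a gene without a peak may still carry signal below the authors' limits.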

Other observations

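Co-bound peaks just beyond the windows differed in distance between the genes. The nearest lay 276 bp beyond the window of *Igfbp2*, with *Igfbp5*, another IGF-binding protein gene, as its nearest TSS. At *Irs2* and *Igfbp1* it lay 4.07 and 4.83 kb beyond the window, and at *Ghr* 6.84 kb, in each case nearest to the gene itself. At *Angptl4*, *Irs1*, *Insr* and *Igf1* it lay 25.6, 28.2, 61.0 and 88.1 kb beyond. The nearest HDAC3-only peak outside the 9 windows lay 65.8 kb beyond that of *Angptl4*.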
